A study of Mus musculus with 2 samples.

Results

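Naive-like T cells were 62 of 662 kept barcodes in the GS-KO liver library and 185 of 3275 in the control library, 247 of 3937 in all. A barcode counted when it had at least 500 UMIs (molecules counted once each), at least 200 genes and at most 20% of its UMIs from mitochondrial genes, and met 4 further conditions. It needed at least 3 UMIs of Cd3d, Cd3e, Cd3g, Trac and Trbc2 together, at most 1 UMI of the B cell genes Cd79a and Cd79b, and under 0.5% of its UMIs from the macrophage genes C1qa, C1qb and C1qc. The UMIs of Lef1, Tcf7, Il7r and Dapl1 also had to outnumber those of the effector genes Nkg7, Ccl5, Gzmb and Cxcr6. The cells were thus chosen by the measured UMIs of these genes, whose levels are given as a description.

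Naive T cells have left the thymus and not yet met their antigen. They pass between blood and lymphoid organs, kept alive by interleukin-7 through the receptor subunit Il7r, and hold a quiescent programme set by the transcription factors Tcf7 and Lef1. The chemokine receptor Ccr7 and the sphingosine phosphate receptor S1pr1 direct their traffic, and in the liver such cells are carried by the blood that flows through its sinusoids, beside resident effector T cells.

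The GS-KO library came from 1 tumour-bearing Glul f/f mouse given AAV8-Cre, and the control library from 1 tumour-bearing Glul f/f mouse given AAV8-GFP, each 7 weeks after the virus. Both mice thus carried the floxed alleles, the tumours and an AAV8 vector, which delivers genes mainly to hepatocytes. The T cells were therefore not the cells the vector reaches most. Cells left in the supernatant after collagenase perfusion were enriched with beads against F4/80, a macrophage protein, and dead cells were removed, so T cells were not what the beads select for and their share of a library is a share of that mixture. Age was not in the sources used here. Each group is 1 mouse and 1 library, so how far mice of a group differ is unknown and no test was made. All intervals below are 95% intervals of counting error only.

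Over all barcodes of a library, Glul, the targeted gene, had 598 of 8805330 UMIs in the GS-KO library and 91052 of 64770011 in the control library. The GS-KO library had 1366 barcodes, of which 48.5% were kept, and the control library 5074, of which 64.5% were kept. The libraries shared 1 barcode sequence, and none among the naive-like T cells. Naive-like T cells had a median of 6293 UMIs and 1571 genes in the GS-KO library and 5188 UMIs and 1435 genes in the control library, and mitochondrial genes made up a median of 2.84% and 3.79% of their UMIs.

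Beside the label stands Ccr7, a homing receptor that the rule did not use and that B cells also carry. It had a UMI in 45 of 62 GS-KO cells (72.6%, 59.8 to 83.2) and 121 of 185 control cells (65.4%, 58.1 to 72.2). In barcodes with at least 0.5% of UMIs from the C1q genes it had a UMI in 0 of 98 in the GS-KO library and 10 of 1450 in the control library, at median depths of 13151 and 15618.5 UMIs. Barcodes that failed only the last condition, with an effector UMI and at most 1% of UMIs from other cell types, had Ccr7 in 5 of 17 (29.4%) and 22 of 104 (21.2%). Those with at least 3 UMIs of the Cd79 genes had it in 65 of 122 (53.3%) and 216 of 475 (45.5%), at lower median depths of 3886 and 3681 UMIs. Ccr7 thus does not tell these cells from B cells. Of the genes the rule used, at least 1 of Lef1 and Tcf7 was found in 56 of 62 GS-KO cells (90.3%) and 179 of 185 control cells (96.8%). No UMI of any of the 4 effector genes was present in 54 of 62 GS-KO cells (87.1%) and 139 of 185 control cells (75.1%). Foxp3, which marks regulatory T cells, had a UMI in 0 of 62 GS-KO cells, which allows a share of up to 5.78% of cells with a UMI but sets no limit on cells that express it, and in 5 of 185 control cells (2.70%). Trdc, the constant gene of gamma delta T cells, had one in 3 GS-KO and 4 control cells, and Mki67 or Top2a, which mark dividing cells, in 0 GS-KO and 4 control cells.

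**Figure D1:**
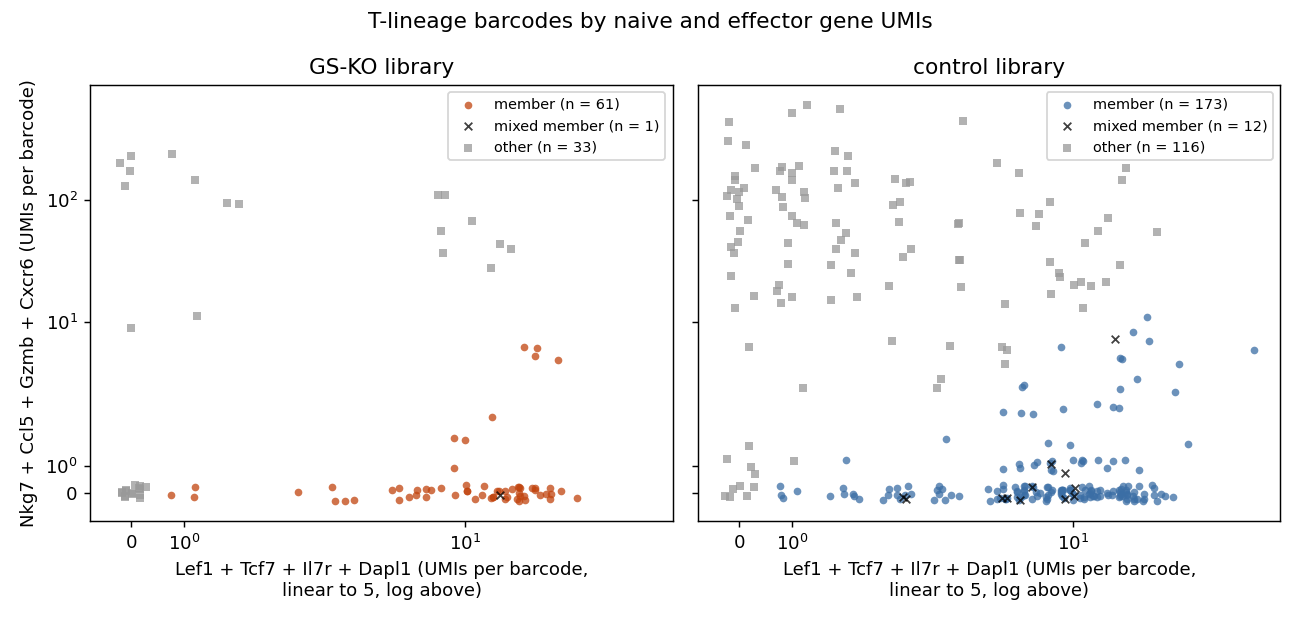
Each point is a T-lineage barcode, placed by its UMIs of Lef1, Tcf7, Il7r and Dapl1 (x axis) and of Nkg7, Ccl5, Gzmb and Cxcr6 (y axis), with both axes linear to 5 and logarithmic above and a small jitter added. Naive-like T cells fill the lower right in both libraries, and 15 of 33 other GS-KO barcodes, against 6 of 116 other control barcodes, sit at 0 on both axes.

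Some barcodes lay close to the edge of the rule. The naive genes exceeded the effector genes by a single UMI in 3 GS-KO and 5 control cells. Just outside, 15 GS-KO and 10 control T-lineage barcodes had equal sums, of which 15 and 6 had no UMI of any of the 8 genes. Of those empty barcodes, 11 GS-KO and 4 control ones carried the neutrophil gene S100a8. Only 1 cell of each library sat at the limit of 3 T cell UMIs.

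RNA of other cell types was unequal between the libraries. A median of 0.0514% of the UMIs of a GS-KO cell and 0.242% of those of a control cell came from lists of hepatocyte, macrophage, B cell, neutrophil, endothelial and erythroid genes. Any C1q UMI was present in 6 of 62 GS-KO and 97 of 185 control cells. More than 1% of UMIs came from these lists in 1 of 62 GS-KO and 12 of 185 control cells, called mixed barcodes from here on. The deepest control cell alone held 85151 UMIs, 7.81% of all control UMIs, with 4035 UMIs of the hepatocyte list and 1237 of the macrophage list, against 11 UMIs of the 5 T cell genes. The deepest GS-KO cell held 17331 UMIs, 202 of them from the macrophage list.

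**Figure D2:**
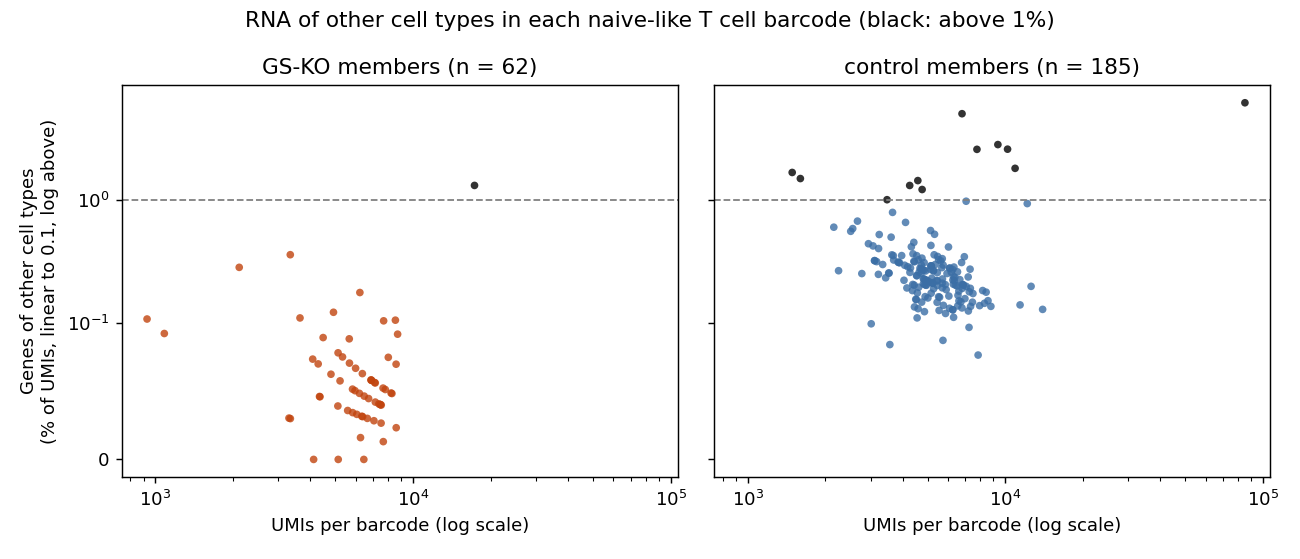
Each point is a naive-like T cell barcode, with its UMIs on a logarithmic x axis and the percent of them from genes of other cell types on the y axis, linear to 0.1 and logarithmic above. Black points lie above the dashed line at 1%, 1 of 62 in the GS-KO and 12 of 185 in the control library, and the control lower quartile of 0.183% lies above the GS-KO upper quartile of 0.0745%.

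Levels were compared as CPM, the UMIs of a gene per 1000000 UMIs summed over the cells of a library, for genes with at least 20 UMIs over both libraries. Over all 62 GS-KO and 185 control cells, 527 of 5590 genes (9.43%) were at least 1.5-fold higher in the GS-KO library and 1417 (25.3%) at least 1.5-fold lower (34.8% either way), so 27.1% of the genes past the fold were higher. That split was 41.0% with a median-of-ratios size factor, which shifted all log2 ratios by 0.14, and 43.6% when mitochondrial, ribosomal and other cell type genes were left out of the total. The 12 genes that led the lower side over all cells included Gsta1, Mgst1, Cyp2a5, Cyp1a2 and Aldh1a1, enzymes of hepatocytes. Mgst1, for example, averaged 2.61 CPM in GS-KO and 574 CPM in control cells, and without the mixed barcodes it had 0 UMIs in the GS-KO and 68 in the control cells.

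The values below therefore leave out the mixed barcodes, a choice made after the data were seen, which left 61 GS-KO cells with 365946 UMIs and 173 control cells with 939497 UMIs. On them, 450 of 4874 genes (9.23%) were at least 1.5-fold higher and 965 (19.8%) at least 1.5-fold lower in the GS-KO library, and the median log2 ratio of all genes was −0.10. In all, 29% lay past the fold either way, and 31.8% of those were higher (43.7% with the size factor and 47.1% with the reduced total). The 12 leading genes on the lower side still included Cyp2a5, Cyp1a2, Gc and Car3 of hepatocytes and Tyrobp of myeloid cells. Thinly covered genes can pass this fold by counting error alone. The counts of higher and lower genes in each list below are to be read beside 9.23% and 19.8%. Hepatocyte RNA was still unequal after this step, at 155.8 CPM in GS-KO and 1119 CPM in control cells for the sum of the list, with 13 of 13 measured genes lower in GS-KO. The macrophage list summed to 191 CPM in GS-KO and 1077 CPM in control cells. The part of this RNA in the lower genes below was not tested.

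Among the genes of the rule, Il7r stood higher in GS-KO cells. Il7r (ENSMUSG00000003882, GRCm38 chr15:9505788-9530176, minus strand) had 1101 CPM in GS-KO and 638 CPM in control cells, 1.73-fold higher (1.52 to 1.96). After each cell was thinned to 1000 UMIs, mixed barcodes included and 1 GS-KO cell of under 1000 UMIs left out, it had a UMI in 39 of 61 GS-KO cells (63.9%) and 75 of 185 control cells (40.5%). Before thinning it had one in 58 of 62 GS-KO and 149 of 185 control cells, beside 5 of 98 GS-KO (5.10%) and 59 of 1450 control barcodes (4.07%) with at least 0.5% C1q UMIs. Lef1 had 522 CPM in GS-KO and 602 CPM in control cells, and Tcf7 306 and 381 CPM, ratios of 0.866 (0.731 to 1.02) and 0.803 (0.644 to 0.996). Dapl1 was lower, at 235 CPM in GS-KO and 360 CPM in control cells, a ratio of 0.653 (0.509 to 0.830). Its shares of cells were alike, at 25 of 61 in GS-KO (41.0%) and 68 of 173 in control (39.3%). Cd3d also had less, 727 CPM in GS-KO and 996 CPM in control cells, a ratio of 0.730 (0.634 to 0.837), while Cd3e had 448 and 433 CPM, a ratio of 1.03 (0.858 to 1.24).

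Of 18 measured genes of naive homing and quiescence, 2 were at least 1.5-fold higher and 2 lower in GS-KO cells. That was 11.1% each way, beside 9.23% and 19.8% of all genes. The sum of the list was 8173 CPM in GS-KO and 7031 CPM in control cells (ratio 1.16, 1.11 to 1.21). Igfbp4, which binds insulin-like growth factors, had 347 CPM in GS-KO and 185 CPM in control cells. Txk, a Tec family kinase of T cells, had 456 and 248 CPM. The repressor Klf3 had less, at 178 CPM in GS-KO and 278 CPM in control cells, as did Actn1, an actin crosslinker, at 32.8 and 63.9 CPM. The homing receptors Ccr7 and S1pr1 lay within 1.5-fold, with Ccr7 at 350 CPM in GS-KO and 281 CPM in control cells and S1pr1 at 249 and 196 CPM. Klf2, which maintains S1pr1 transcription, had 1809 and 1644 CPM.

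The 18 measured genes of the T cell receptor complex and its proximal signalling summed to 3394 CPM in GS-KO and 3348 CPM in control cells, a ratio of 1.01 (0.949 to 1.08). Of them, 2 were higher and 2 lower (11.1% each way). The receptor beta constant gene Trbc1, which the rule did not use, was higher, at 951 CPM in GS-KO and 594 CPM in control cells (1.60-fold, 1.40 to 1.83). The other beta constant gene, Trbc2, had 1358 and 1920 CPM (ratio 0.707, 0.639 to 0.782), but the rule chose cells partly by its UMIs. Trbc1 and Trbc2 are close copies, and Trbc1 had a UMI in 41 of 61 GS-KO and 79 of 173 control cells. In the Cd8-type cells described below the Trbc1 ratio ran the other way, at 0.354. Ptprc, the phosphatase CD45, had 352 CPM in GS-KO and 548 CPM in control cells (ratio 0.643, 0.526 to 0.781). The 8 Gimap genes, GTPases that sustain lymphocyte survival, summed to 1918 and 2057 CPM, a ratio of 0.932 (0.854 to 1.02).

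Chaperones of the heat shock response lay on the higher side. Of 12 measured, 9 were at least 1.5-fold higher in GS-KO cells (75%, beside 9.23% of all genes) and 0 lower. Their sum was 7870 CPM in GS-KO and 4825 CPM in control cells, 1.63-fold higher (1.56 to 1.71), with a median log2 ratio of 0.81. Over all cells, mixed ones included, 6 of 13 were higher and 1 lower, and the ratio of the sum was 1.55. Without mixed barcodes it lay between 1.56 and 1.78 under the other scalings, the mean over cells, thinning and each coreceptor type.

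Hspa1a (ENSMUSG00000091971, GRCm38 chr17:34969190-34972156, minus strand), an inducible Hsp70, had 167 CPM (127 to 214) in GS-KO and 17.0 CPM (9.73 to 27.7) in control cells, 9.79-fold higher (5.57 to 18.2). The ratio was 3.53 with cells thinned to 1000 UMIs, 6.88 in Cd4-type and 2.66 in Cd8-type cells. It had a UMI in 19 of 61 GS-KO and 11 of 173 control cells. Its neighbour Hspa1b had 158 CPM in GS-KO and 35.1 CPM in control cells (4.51-fold, 2.89 to 7.14), in 19 and 17 cells, with ratios of 2.36 in Cd4-type and 1.36 in Cd8-type cells. The 2 genes are near-identical copies, so how reads were shared between them is uncertain. Dnajb1, an Hsp40 partner of Hsp70, had 303 CPM in GS-KO and 101 CPM in control cells (3.00-fold, 2.26 to 3.99), in 45 of 61 and 71 of 173 cells. Hsph1, which recharges Hsp70, had 112 and 43.6 CPM, 2.57-fold higher (1.62 to 4.06), but thinning to 1000 UMIs left a ratio of 0.964. Hsp90aa1 had 765 CPM in GS-KO and 400.2 CPM in control cells (1.91-fold), the mitochondrial chaperonins Hspd1 and Hspe1 were 1.81-fold and 1.69-fold higher, and the constitutive Hspa8, at 1880 and 1401 CPM, stayed under the fold at 1.34.

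The heat shock element bound by Hsf1 is built from inverted GAA units. The upstream sequences of Hspa1a, Hspa1b, Dnajb1 and Hsph1 are shown because these had the 4 highest ratios of the list. Each is the 250 bases before an annotated start, from RefSeq (GRCm38.p6, plus strand for Dnajb1 and minus strand for the others), with matches to GAANNTTC or TTCNNGAA in capitals. They lie at chr17:34972157-34972406 for Hspa1a, chr17:34959239-34959488 for Hspa1b, chr8:83607925-83608174 for Dnajb1 and chr5:149636337-149636586 for Hsph1.
Hspa1a: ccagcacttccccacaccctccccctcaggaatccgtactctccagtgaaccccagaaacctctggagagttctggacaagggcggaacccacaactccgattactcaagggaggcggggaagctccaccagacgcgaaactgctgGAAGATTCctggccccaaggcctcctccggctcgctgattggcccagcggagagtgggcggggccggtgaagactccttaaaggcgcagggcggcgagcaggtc
Hspa1b: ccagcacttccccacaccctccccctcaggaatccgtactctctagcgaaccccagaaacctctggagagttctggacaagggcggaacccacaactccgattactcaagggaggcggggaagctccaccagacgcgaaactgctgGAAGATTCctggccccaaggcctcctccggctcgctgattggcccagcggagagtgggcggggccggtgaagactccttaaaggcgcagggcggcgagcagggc
Dnajb1: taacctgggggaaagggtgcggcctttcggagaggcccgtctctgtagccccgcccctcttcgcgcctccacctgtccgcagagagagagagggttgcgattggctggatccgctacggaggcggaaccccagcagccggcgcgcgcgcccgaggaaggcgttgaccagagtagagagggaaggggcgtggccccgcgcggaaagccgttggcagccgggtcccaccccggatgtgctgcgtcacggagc
Hsph1: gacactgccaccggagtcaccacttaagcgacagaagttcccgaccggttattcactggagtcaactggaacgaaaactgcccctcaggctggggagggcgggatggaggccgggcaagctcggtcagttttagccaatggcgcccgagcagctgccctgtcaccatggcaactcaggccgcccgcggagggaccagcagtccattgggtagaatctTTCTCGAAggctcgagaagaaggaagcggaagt
The Hspa1a and Hspa1b windows were the same at 247 of 250 positions. Searched on both strands, 1 of these motifs began 104 bases before the start in both, and 33 bases before it in Hsph1, while Dnajb1 held no match in either of its 2 windows. Of all 32851 windows of this length, 12.8% held at least 1 match. Counted by gene, with a match in any of its windows, this was 14.6% of 27025 genes, and 7 of the 10 list genes with a window. The list was made up of heat shock genes, so its share of matches is no result about these cells, and the near-identical Hspa1a and Hspa1b windows both count in it. A match is a run of letters, not a measured binding site.

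**Figure D3:**
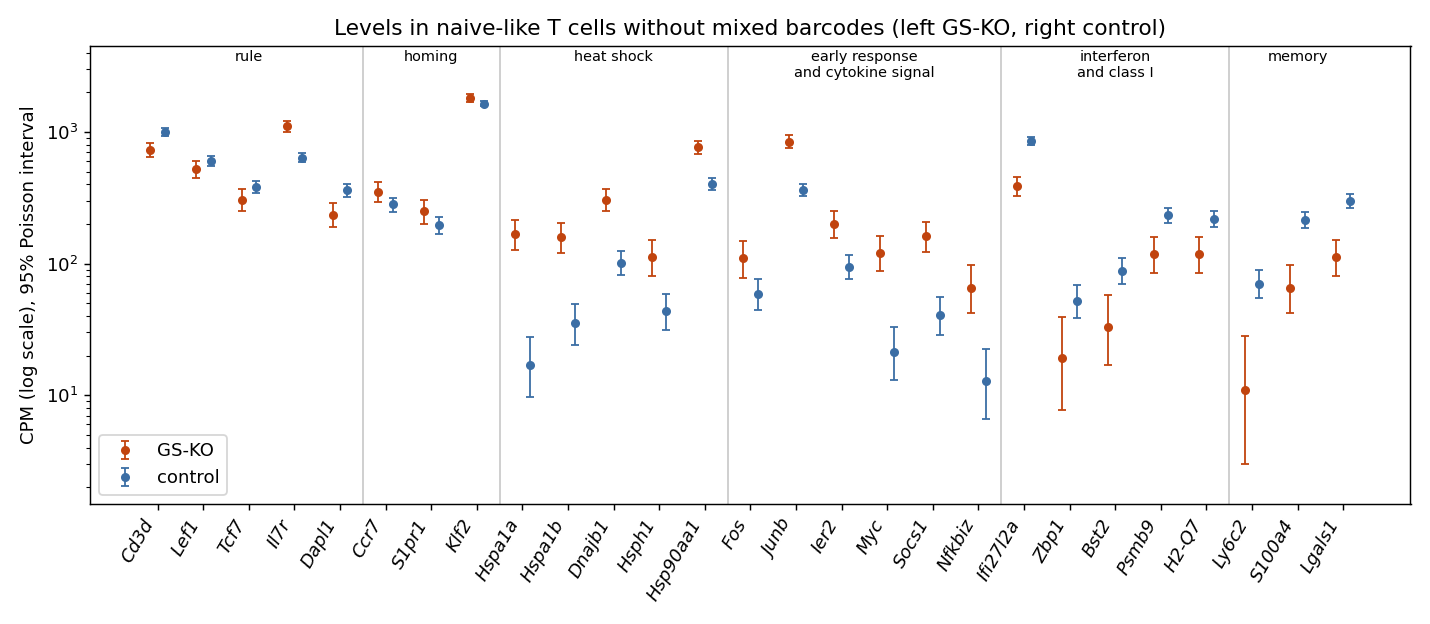
CPM on a logarithmic axis for 27 genes in naive-like T cells without mixed barcodes, GS-KO (61 cells, left of each pair) and control (173 cells), with exact Poisson 95% intervals. Hspa1a, Hspa1b, Myc, Socs1 and Nfkbiz stand higher in GS-KO with intervals apart from control, and Ifi27l2a, Ly6c2, S100a4 and Lgals1 stand lower.

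Immediate early genes, which many cells also switch on while a tissue is taken apart, were higher as well. Of 15 measured, 5 were at least 1.5-fold higher (33.3%, beside 9.23% of all genes) and 1 lower, Ier5, at 46.5 CPM in GS-KO and 84.1 CPM in control cells. Their sum was 3533 CPM in GS-KO and 2512 CPM in control cells, a ratio of 1.41 (1.31 to 1.51). The AP-1 subunit Junb had 844 CPM in GS-KO and 361 CPM in control cells (2.34-fold, 2.00 to 2.74), in 50 of 61 and 118 of 173 cells. Ier2 had 199.5 and 94.7 CPM (2.11-fold), and Klf6 361 and 211 CPM (1.71-fold). Fos had 109 and 58.5 CPM (1.87-fold, 1.21 to 2.86), 3.19-fold with the mixed barcodes included.

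Several regulators of cytokine and growth signals were higher in GS-KO cells. Myc (ENSMUSG00000022346, GRCm38 chr15:61985391-61990374, plus strand), the transcription factor that drives T cell growth after activation, had 120.2 CPM in GS-KO and 21.3 CPM in control cells, 5.65-fold higher (3.26 to 10.1), in 19 of 61 and 20 of 173 cells. Socs1 (GRCm38 chr16:10782240-10785536, minus strand), which blocks JAK kinases downstream of cytokine receptors, had 161 and 40.5 CPM (3.99-fold, 2.61 to 6.16). Nfkbiz, an atypical inhibitor of NF-κB that also acts as its cofactor, had 65.6 CPM in GS-KO and 12.8 CPM in control cells (5.14-fold, 2.47 to 11.3), from 24 and 12 UMIs. These differences were not the work of a single cell: the cell with most UMIs of each gene held between 10.2% and 20.8% of the GS-KO UMIs.

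The lists around these genes moved less. Of 19 cytokine receptor and JAK-STAT genes, 4 were higher (21.05%: Socs1, Cish, Il4ra and Stat5b) and 2 lower (10.5%: Stat6 and Il6st). The sum had a ratio of 1.16 (1.06 to 1.28). Of 9 NF-κB and TNF genes, 4 were higher (44.4%: Nfkbiz, Traf1, Relb and Tnfaip3) and 0 lower, with a sum ratio of 1.29 (1.05 to 1.58). Of 11 genes of cell death and survival, 2 were higher (18.2%) and 1 lower (9.09%), and the sum was 2629 CPM in GS-KO and 1836 CPM in control cells (1.43-fold). Pdcd4, a translation inhibitor, had 735 and 394 CPM, and the death receptor Fas 71.0 and 26.6 CPM (but with a ratio under 1 in Cd4-type cells), while the survival gene Bcl2 had 891 and 646 CPM, a ratio of 1.38 (1.20 to 1.58).

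The other leading genes on the higher side were of mixed function. Tmem64, a membrane protein, had 224 CPM in GS-KO and 64.9 CPM in control cells (3.45-fold, 2.45 to 4.89). The predicted gene Gm11808 had 743 CPM in GS-KO and 228 CPM in control cells (3.26-fold). Gm20186 had 68.3 and 19.2 CPM, but its ratio was under 1 once cells were thinned. Cxcr4, the receptor for Cxcl12, had 134 CPM in GS-KO and 46.8 CPM in control cells (2.86-fold, 1.86 to 4.40), and Gpr183, an oxysterol receptor that guides lymphocytes, 115 and 44.7 CPM (2.57-fold). Tnfrsf18, the costimulatory receptor GITR that regulatory T cells carry at high level, had 219 and 101 CPM (2.16-fold, and 1.15 with cells thinned). Of 81 measured ribosomal protein genes, 11 were higher, among them Rps29, Rpl38 and Rpl41, and 0 lower, beside 9.23% and 19.8% of all genes. Their median log2 ratio was 0.096, so most of them differed little.

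Interferon response genes lay on the lower side. Of 28 measured, 0 were at least 1.5-fold higher and 13 lower (46.4%, beside 19.8% of all genes), with a median log2 ratio of −0.47. Their sum was 3061 CPM in GS-KO and 4068 CPM in control cells, a ratio of 0.752 (0.703 to 0.804), and 0.819 under the scaling that moved it most. Ifi27l2a, a mitochondrial protein induced by interferon, had 388 CPM in GS-KO and 860 CPM in control cells (ratio 0.451, 0.375 to 0.540), in 42 of 61 and 144 of 173 cells. The nucleic acid sensor Zbp1 had 19.1 and 52.2 CPM, the tethering factor Bst2 32.8 and 88.4 CPM, and the immunoproteasome subunit Psmb9 117.5 and 232 CPM (ratio 0.506, and 0.242 with cells thinned). All of these are from the 13 lower genes, and the other 15 lay within the fold, with log2 ratios up to 0.512. Isg15 had a UMI in 6 of 61 GS-KO (9.84%) and 15 of 173 control cells (8.67%), and Irf7 in 6 (9.84%) and 16 (9.25%).

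Class I antigen presentation differed less. Of 16 measured genes, 0 were higher and 3 lower (18.75%, beside 19.8% of all genes). The sum was 8089 CPM in GS-KO and 8855 CPM in control cells (ratio 0.914, 0.876 to 0.953), a ratio that came to 0.994 with mitochondrial, ribosomal and other cell type genes out of the total. H2-Q7 had 117.5 and 218 CPM and the immunoproteasome subunit Psmb10 65.6 and 136 CPM. The light chain B2m had 1705 CPM in GS-KO and 1937 CPM in control cells. H2-D1, at 3951 and 4020 CPM, had a ratio of 0.983 that lay above 1 under the size factor, under the reduced total, in Cd8-type cells and over all cells.

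Genes of memory and activation were also lower in sum, 896 CPM in GS-KO and 1345 CPM in control cells (ratio 0.666, 0.588 to 0.753). Of 13 measured genes, 2 were higher (15.38%) and 6 lower (46.15%). Few cells carried this difference. S100a4, a calcium-binding protein of memory T cells, had 65.6 and 214 CPM, from 3 GS-KO and 12 control cells, and a single GS-KO cell held 79.2% of its UMIs. Ly6c2, a surface protein of memory Cd8 T cells, had 10.9 CPM in GS-KO and 70.2 CPM in control cells, in 2 of 61 and 15 of 173 cells. Lgals1, the lectin galectin-1, was more widely spread, with 112 CPM in GS-KO and 298 CPM in control cells (ratio 0.376, 0.264 to 0.523), in 19 and 80 cells. Of the regulatory T cell list, 1 of 3 measured genes was higher, Tnfrsf18, and 0 lower, and the sum was 379.8 CPM in GS-KO and 298 CPM in control cells (ratio 1.27, 1.03 to 1.57, and 0.906 with cells thinned). Its members Foxp3, Ikzf2 and Ctla4, each under the limit of 20 UMIs, had 0 UMIs in GS-KO cells and 8, 18 and 15 in control cells.

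Genes of glutamine and amino acid handling were asked about because Glul was the targeted gene. Glul itself had 13 UMIs in GS-KO and 34 in control cells without mixed barcodes, 35.5 CPM and 36.2 CPM, a ratio of 0.982 (0.475 to 1.91). Over all cells the values were 33.9 and 250.5 CPM, a ratio of 0.135, so the deep mixed control barcodes held most of the control Glul. Of 11 measured list genes, 3 were higher (27.3%) and 4 lower (36.4%). Slc38a2, a glutamine and neutral amino acid transporter, had 197 CPM in GS-KO and 98.99 CPM in control cells (1.99-fold, 1.44 to 2.73). Glycolytic genes summed to 2134 and 1687 CPM (ratio 1.26, 1.16 to 1.38), with 1 of 12 higher, whereas the ratio was 1.12 with the mixed barcodes included. Mitochondrially encoded genes summed to 32543 CPM in GS-KO and 41592 CPM in control cells (ratio 0.782), while nuclear respiratory chain genes summed to 6807 and 6635 CPM.

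The same ratios were taken in B cells (119 GS-KO and 421 control) and in the other T-lineage barcodes with an effector UMI (17 and 104), each without mixed barcodes, to set the naive-like T cells beside their neighbours. Heat shock genes were 1.98-fold higher (1.92 to 2.05) in B cells and 1.55-fold (1.46 to 1.64) in effector-positive barcodes. Immediate early genes were 1.502-fold and 1.655-fold higher in those 2 sets, and interferon response genes had ratios of 0.713 and 0.635. These 3 patterns were thus also present in the other lymphocytes of the same 2 libraries. Gm42418, a gene that overlaps ribosomal RNA sequence, was likewise low in GS-KO in all 3, with ratios of 0.296 in naive-like T cells, 0.335 in effector-positive barcodes and 0.341 in B cells.

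**Figure D4:**
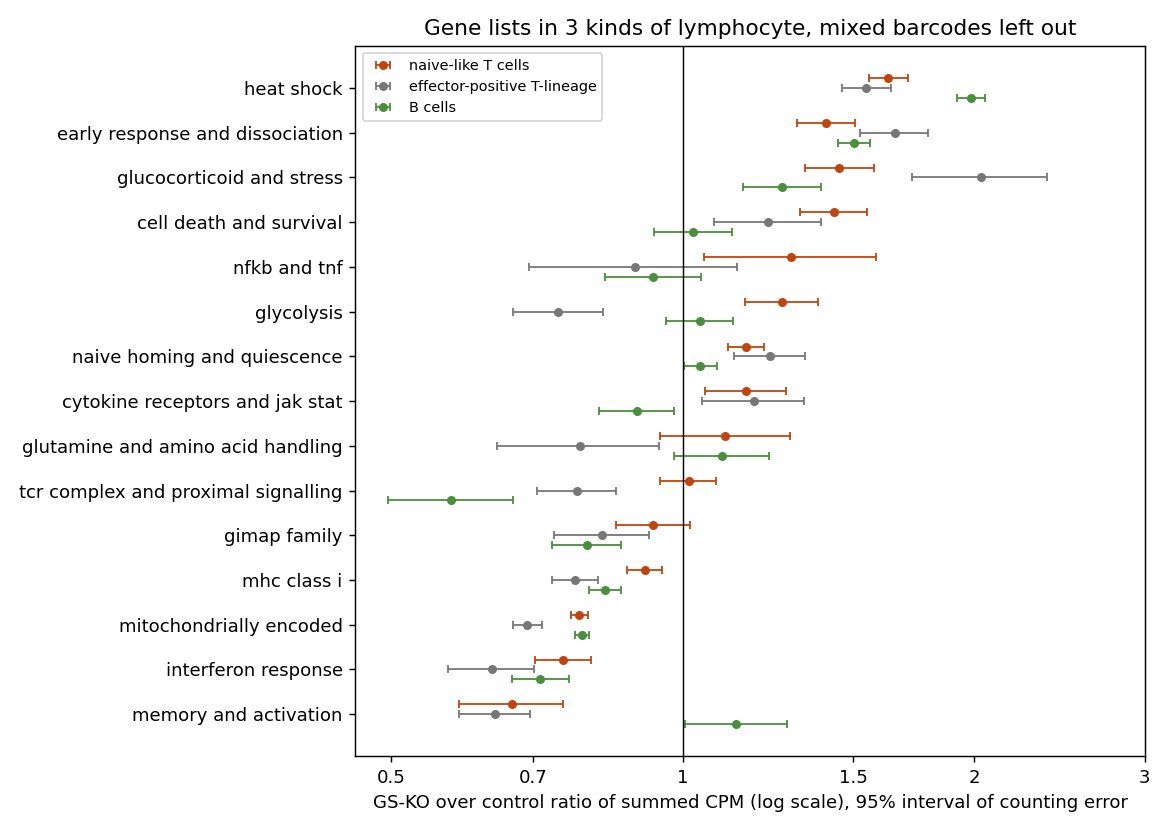
GS-KO over control ratio of the summed CPM of 15 gene lists on a logarithmic axis, for naive-like T cells, effector-positive T-lineage barcodes and B cells without mixed barcodes, with 95% intervals of counting error. Heat shock, immediate early and interferon lists lie on the same side of 1 in all 3, and the memory list lies below 1 in both T cell sets only. The glucocorticoid and stress list holds Il7r, which the rule used, as its member with most UMIs.

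A few genes were higher in the naive-like T cells with ratios nearer 1 in the other 2 sets. Socs1 was 3.99-fold higher in them, and had ratios of 1.05 (0.592 to 1.77) in effector-positive barcodes and 1.19 (0.204 to 4.97) in B cells. Tmem64 was 3.45-fold higher in them, with ratios of 0.758 (0.196 to 2.12) and 1.21 (0.636 to 2.20) in the other 2 sets. Myc was 5.65-fold higher in them, against 1.66 (0.702 to 3.51) and 1.61 (1.04 to 2.46). The effector-positive intervals are wide, since that set held 17 GS-KO barcodes. In B cells Socs1 had a UMI in only 3 of 119 GS-KO and 8 of 421 control cells, so its ratio there is too uncertain to set against the naive-like T cells. The differences between cell kinds were not tested.

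**Figure D5:**
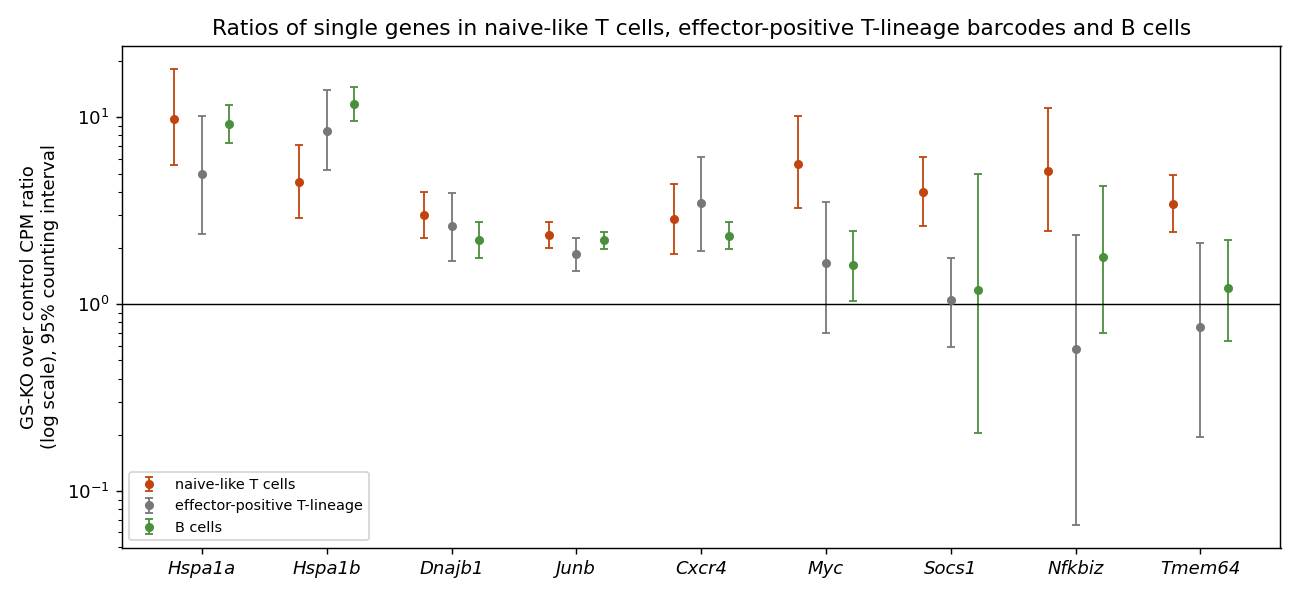
GS-KO over control CPM ratio of 9 genes on a logarithmic axis in naive-like T cells, effector-positive T-lineage barcodes and B cells, with 95% intervals of counting error. Hspa1a, Hspa1b, Dnajb1, Junb and Cxcr4 lie above 1 in all 3, whereas Socs1 and Tmem64 intervals span 1 in the other 2.

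By coreceptor, cells with Cd4 UMIs alone were 24 of 62 in the GS-KO library (38.7%, 26.6 to 51.9) and 63 of 185 in the control library (34.1%, 27.3 to 41.4). Cells with Cd8a or Cd8b1 UMIs alone were 6 of 62 (9.68%, 3.64 to 19.9) and 38 of 185 (20.5%, 15.0 to 27.1). Both coreceptors were seen in 0 GS-KO and 2 control cells, and neither in 32 and 82. Among cells with a single coreceptor, the Cd8-type share was 20% in GS-KO (6 of 30, 7.71 to 38.6) and 37.6% in control (38 of 101, 28.2 to 47.8), 17.6 points lower, with intervals that overlap. Thinning to 1000 UMIs left 11 GS-KO and 39 control cells with a single coreceptor, and Cd8-type shares of 54.5% and 69.2%. Among barcodes with at least 3 UMIs of the Cd79 genes, whatever their T cell UMIs, 0 of 122 GS-KO and 3 of 475 control ones were Cd8-type and 0 and 2 were Cd4-type, at median depths of 3886 and 3681 UMIs. Among those with at least 0.5% C1q UMIs, 3 of 98 GS-KO and 5 of 1450 control ones were Cd8-type, and 2 of 98 (2.04%) and 144 of 1450 (9.93%) Cd4-type. Effector-positive barcodes ran the other way, with 8 of 9 single-coreceptor barcodes Cd8-type in GS-KO and 31 of 47 in control.

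Mixed barcodes left out, the coreceptor types were set beside each other within each library, and whether the gaps differ between libraries was not tested. Dapl1 had 610 CPM in Cd8-type and 125 CPM in Cd4-type GS-KO cells (4.88-fold, 2.60 to 9.36), and 850 and 230 CPM in control cells (3.70-fold, 2.82 to 4.90). Pdlim4, a cytoskeletal adaptor, had 0 UMIs in Cd8-type and 24 in Cd4-type GS-KO cells, and 0 and 29 UMIs in control cells. Klrd1, an NK receptor chain that Cd8 T cells can also carry, had 174 CPM in Cd8-type and 13.9 CPM in Cd4-type GS-KO cells, and 102 and 30.6 CPM in control cells. Most control UMIs of Ly6c2, 54 of 66, lay in Cd8-type cells, where its level was 65.4 CPM in GS-KO and 240.3 CPM in control. The Il7r ratio of GS-KO over control was 1.56 within Cd4-type and 1.26 within Cd8-type cells, that of Socs1 was 3.94 and 1.97, and that of Tcf7 was 1.01 and 0.511, with 23 and 6 GS-KO cells behind them.

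Set against the effector-positive barcodes of the same library, which the rule separated, the naive-like T cells had more Igfbp4, at 347 CPM in GS-KO naive-like T cells against 0 UMIs in GS-KO effector-positive barcodes, and 185 CPM against 14.0 CPM in control. These values describe the split and are no test of it. Trat1, an adaptor that stabilises the T cell receptor complex, had 158 CPM against 6.63 CPM in GS-KO and 137 against 9.001 CPM in control. The kinase-like Trib2 had 148 CPM against 0 UMIs in GS-KO, and 98.99 CPM against 10.0 CPM in control. On the other side, the granzyme Gzma had 0 UMIs in naive-like T cells and 4000.0 CPM in effector-positive barcodes of GS-KO, and 3.19 and 1591 CPM in control. The NK receptor Ncr1 had 0 UMIs and 471 CPM in GS-KO and 1.06 and 354 CPM in control, so the effector-positive set held barcodes with NK cell RNA.

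As a share of kept barcodes, naive-like T cells made up 9.37% (7.26 to 11.9) in the GS-KO and 5.65% (4.88 to 6.50) in the control library, 3.72 points higher. B cells were also a larger share in GS-KO, at 18.1% (15.3 to 21.3) and 13.9% (12.8 to 15.2), and naive-like T cells out of these plus B cells were 34.1% (27.2 to 41.4) in GS-KO and 28.9% (25.4 to 32.5) in control. Of T-lineage barcodes they were 65.3% (62 of 95, 54.8 to 74.7) in GS-KO and 61.5% (185 of 301, 55.7 to 67.0) in control. That total held the barcodes with no UMI of any of the 8 genes, 15 in GS-KO and 6 in control. Genes of other cell types made up a median of 22.6% and 16.3% of their UMIs. Without them, the shares were 77.5% (62 of 80, 66.8 to 86.1) and 62.7% (185 of 295, 56.9 to 68.2). With mixed barcodes also left out, they were 78.2% (61 of 78, 67.4 to 86.8) and 62.45% (173 of 277, 56.5 to 68.2). Shares of a bead-enriched mixture depend on what the beads and the dead cell removal let through in each preparation, and this cannot be told apart from the group.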

How the data were processed

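Single-cell RNA of 2 mouse liver libraries, 1 per group, was measured with a droplet 3′ kit; the labels name it 3PrimeV2 and in 1 place single-nucleus, and which holds is not known here. Cell Ranger and the mm10 genome are named in the submitters' processing notes, and the authors deposited raw UMI counts per gene and barcode (software version 3.1.0 per the file headers). No barcode had under 501 UMIs. The naive-like T cells and all 36 gene lists were chosen with earlier results of these data known. UMI counts were summed over the cells of a library and scaled to CPM, and a gene was measured with at least 20 UMIs over both libraries. Genes past the fold had a log2 ratio, with a prior count of 0.5, of at least 1.5-fold. Intervals are exact: Poisson for CPM, Clopper-Pearson for shares, conditional binomial for ratios; they cover counting error only, and UMIs of 1 cell are not independent. A count of 0 allows up to the upper bound printed.

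Genes were named by rank: the 12 higher and 12 lower with at least 30 UMIs ranked by the interval bound nearest 1, 10 each way against other T-lineage barcodes, 6 each way between coreceptor types, and per list the 4 with most UMIs and the one whose bound lay farthest from 1. Mitochondrial, ribosomal, haemoglobin, immunoglobulin, sex-linked, other cell type and rule genes were left out of the ranking. The other list members named, among them Hsph1, Hsp90aa1, Ier2, Fas, Gpr183, Psmb9 and Foxp3, the ribosomal protein genes and the genes ranked without mixed barcodes were picked after their values were seen. The limit of 1% for mixed barcodes and the comparison sets without them were also chosen after the data were seen. Ratios were tested on simulated counts with known folds. Doublets were left in; Scrublet (scanpy 1.11.5, expected rate 5%) was an alternative. Gene positions came from a GRCm38 annotation, which matched 32235 of 32285 features, and upstream sequences from RefSeq. Figures were drawn with matplotlib 3.10.9 and sums made with pandas 2.3.3, scipy 1.17.1 and numpy 2.4.6 under Python 3.11.15. B cells had at least 3 UMIs of the Cd79 genes and none of the 5 T cell genes.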

Additional observations from a re-analysis of the deposited data

Results flagged for a closer look

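Barcodes outside the size and mitochondrial limits were not used, yet 4 of them in the GS-KO and 6 in the control library met the T cell and naive gene conditions. They were 0.568% of the 704 barcodes left out of the GS-KO library and 0.333% of the 1799 left out of the control library.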

How the results depend on the processing

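No paired analysis was possible because each group is 1 library. The share of kept barcodes, the Cd8-type share and the split of genes kept their direction under the alternatives run for them. The gap in the naive-like share of T-lineage barcodes was 22.3 points when barcodes were thinned to 1000 UMIs before the rule. The count of higher and lower genes was 143 and 249 with cells thinned, 209 and 552 with at least 50 UMIs per gene, 1599 and 2333 with 1 UMI in each library, and 209 and 326 in Cd8-type cells. Without any C1q-positive barcode 674 genes were lower, and with mitochondrial, ribosomal and other cell type genes out of the total 838 were higher. Leaving out mixed barcodes as well gave 141 and 226 thinned, 262 and 421 in Cd4-type and 210 and 315 in Cd8-type cells, and 722 lower genes with the reduced total and 783 with the size factor. Without the deepest control cell, 498 were higher and 1012 lower.

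Sign changes were followed only for named genes and lists at least 1.5-fold apart over all cells, and always against that all-cell ratio. Genes nearer 1 could change side unlisted, such as Tsc22d3 (ratio 0.958) and Cd3e (0.690) in Cd8-type cells without mixed barcodes. The log2 ratios that changed sign over all cells were Glul without C1q-positive barcodes (0.8324), Hsph1 (−0.1264), Gm20186 (−0.3283) and Ly6a (0.01494) thinned, Cd8b1 (0.08915), Trbc1 (−1.492), Fos (−0.00054) and Gpr183 (−0.0005014) in Cd8-type cells, and, at 0 because no such UMI was left, Cd8a and Cd8b1 in Cd4-type cells and Foxp3 in Cd8-type cells. Without mixed barcodes they were Hsph1 (−0.05278), Gm20186 (−0.3873) and Ly6a (0.1415) thinned; Glul under the reduced total (0.09368), the size factor (0.06873), in Cd4-type cells (0.04148) and without the deepest GS-KO cell (0.007853); Ly6c2 (0.8062) and Fas (−0.1863) in Cd4-type cells; and Fos (−0.02739), Gpr183 (−0.02542), Cd8b1 (0.08824), Ier5 (0.04249) and Trbc1 (−1.498) in Cd8-type cells. Of list sums, C1q without C1q-positive barcodes was 0, the Cd79 genes were 0.3385 with and 0.1369 without mixed barcodes in Cd4-type cells, the effector genes 0.09354 and 0.07862 and the erythroid genes −1.138 and −1.14 in Cd8-type cells. Without mixed barcodes, many further ratios moved by over 1.5 times, and those given here are only a part of them. In Cd8-type cells they included Nfkbiz (11.2), Cxcr4 (6.20), Slc38a2 (3.34), Gm11808 (1.85), Ptprc (1.05) and S100a4 (0.0767). Fas (11.7), Tnfrsf18 (3.33), Glul (0.0845), Actn1 (0.0767) and Psmb10 (0.0174) moved there too. In Cd4-type cells they included Nfkbiz (11.2), Hsph1 (4.10), Zbp1 (0.622), Lgals1 (0.193) and S100a4 (0.0403). The causes were not tested. Depth limits genes with few UMIs, above all in the 6 Cd8-type GS-KO cells.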

Other observations

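Of 17 measured cytoskeleton and membrane genes, 1 was at least 1.5-fold higher in GS-KO naive-like T cells without mixed barcodes and 0 were lower. The 2 actin-sequestering thymosins ran in opposite directions, with Tmsb10 at 5780 CPM in GS-KO and 3494 CPM in control cells (ratio 1.65, 1.56 to 1.75) and Tmsb4x at 10482 and 15037 CPM (0.697, 0.672 to 0.722). The same directions held in effector-positive barcodes, with ratios of 1.76 and 0.542, and in B cells, with 1.44 and 0.648. Tsc22d3, the glucocorticoid-induced leucine zipper, had 527 and 386 CPM (1.36-fold, 1.14 to 1.63), but a ratio of 0.958 in Cd8-type cells. Of 6 measured genes of glucocorticoid response and stress, 2 were higher (33.3%, beside 9.23% of all genes) and 0 lower. One of these 2 was Il7r, a gene of the rule. Fkbp5 ran the other way, with a UMI in 1 of 61 GS-KO and 10 of 173 control cells and intervals that overlap.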
